A study of Mus musculus with 4 samples.

Results

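Sox genes encode transcription factors that bind DNA through an HMG box, and 8 of them were followed here by name: Sox2 of the SoxB1 group, Sox4, Sox11 and Sox12 of SoxC, Sox5 and Sox6 of SoxD, and Sox8 and Sox9 of SoxE. The 8 were chosen by gene symbol from 20 Sox genes in the tables, and make up 8 of 21719 genes kept of 22492 gene symbols. All 8 were found, each as a single row, and all 8 passed the minimum level in every comparison. PolyA-enriched RNA was measured in hippocampal neurons dissociated from CD1 mouse pups on postnatal day 0 and grown in culture until day 11 in vitro (DIV11). On DIV4 the cultures received a lentivirus, either with a short hairpin RNA (shRNA) against the histone demethylase gene Kdm6b or with the control vector pLKO.1. On DIV11 cultures of each kind were given bicuculline (50 µM, reading the unit of the labels as micromolar) with 4-aminopyridine (2.5 mM) for 3 h, or nothing. The first drug blocks inhibition through GABA-A receptors and the second blocks potassium channels, so the pair, written Bic/4AP, drives neuronal firing. This gives 4 groups, shRNA with Bic/4AP, shRNA untreated, vector with Bic/4AP and vector untreated, with 1 library each. All 4 carry lentivirus, and the hairpin is a single one.

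The HMG box bends DNA, and Sox proteins act with partner factors such as POU and Pax proteins. SoxB1 factors keep neural progenitors undifferentiated, SoxC factors switch on neuronal genes in newborn neurons, SoxD factors lack an activation domain of their own and tune neuronal subtype and oligodendrocyte timing, and SoxE factors drive glial fate. In the mature brain Sox2 and Sox9 are found mainly in astrocytes and neural stem cells, whereas Sox4 and Sox11 are best known from young neurons.

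Levels are FPKM, the number of fragments scaled by transcript length and by sequencing depth, so that genes can be compared per length. Values in brackets are the lower and upper bounds deposited with each FPKM, which reflect the counting of reads and their assignment to genes in that library, but no variation among cultures. Without replicates no difference was tested. Differences are in log2(FPKM + 1), which understates differences of low genes, and a difference of at least 1 is called 2-fold.

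The promoters of Sox4 and Sox11 are shown first because, of the 8 genes, these stood furthest above their untreated level with Bic/4AP, and that of Sox12 because it is the SoxC gene that was lower. The sequences are RefSeq promoters in build GRCm38.p6, 250 bases before to 50 bases after the start site, all on the minus strand and read 5′ to 3′, at chr13:28953650-28953949 for Sox4, chr12:27342669-27342968 for Sox11 and chr2:152397997-152398296 for Sox12. Capitals mark matches to the motifs searched.
Sox4: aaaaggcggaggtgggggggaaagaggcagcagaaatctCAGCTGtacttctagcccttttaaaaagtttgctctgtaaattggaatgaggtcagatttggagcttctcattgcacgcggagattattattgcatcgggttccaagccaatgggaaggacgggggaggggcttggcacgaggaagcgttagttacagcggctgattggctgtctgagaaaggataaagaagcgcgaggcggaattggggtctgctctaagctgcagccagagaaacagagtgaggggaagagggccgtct
Sox11: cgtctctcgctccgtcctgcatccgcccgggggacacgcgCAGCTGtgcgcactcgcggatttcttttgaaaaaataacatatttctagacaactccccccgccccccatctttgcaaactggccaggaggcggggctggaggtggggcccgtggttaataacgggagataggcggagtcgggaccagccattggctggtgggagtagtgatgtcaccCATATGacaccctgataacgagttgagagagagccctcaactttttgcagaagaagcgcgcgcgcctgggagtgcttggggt
Sox12: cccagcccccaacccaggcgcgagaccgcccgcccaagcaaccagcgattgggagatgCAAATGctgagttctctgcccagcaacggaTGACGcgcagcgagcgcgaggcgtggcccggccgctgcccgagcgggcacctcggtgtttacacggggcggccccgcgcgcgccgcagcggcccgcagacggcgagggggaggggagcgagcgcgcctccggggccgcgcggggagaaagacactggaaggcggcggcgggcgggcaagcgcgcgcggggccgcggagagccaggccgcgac

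Both strands were searched for 6 motifs of factors known to act in firing neurons or in neuronal differentiation: the cAMP response element (CRE, TGACGTCA), its core TGACG, which the full element also contains, the AP-1 site TGANTCA, the Egr site GCGNGGGCG, the E-box CANNTG and the CArG box. The Sox4 window held 1 match, an E-box spelled CAGCTG that begins 211 bases before the start site. The Sox11 window held 2 E-boxes, one spelled CAGCTG 210 bases before the start site and another spelled CATATG 32 bases before it. CAGCTG therefore stood within a base of the same distance in both genes, and how often other promoters share such a distance was not counted. Of all 32851 promoters of this length, 72.3% held an E-box of any spelling and 16.3% held CAGCTG, a spelling counted after the sequences were seen. The Sox12 window held an E-box 192 bases and a CRE core 162 bases before the start site. The CRE core occurred in 20.8% of promoters, the full CRE in 1.79%, the AP-1 site in 7.81%, the Egr site in 5.55% and the CArG box in 1.63%. Of these, the full CRE, the AP-1 site, the Egr site and the CArG box had no match in the Sox4, Sox11 and Sox12 windows, which says only that those letters are not in these windows. Base composition differed among the 3: G and C made up 52.0% of the Sox4 window, 58.7% of the Sox11 window and 76.7% of the Sox12 window, against a median of 52.7% over all promoters. Promoters of 7 of the 8 genes were matched in the table, Sox9 being the one without.

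The targeted gene Kdm6b stood at 4.83 FPKM in shRNA cultures with Bic/4AP, 2.73 in untreated shRNA cultures, 13.1 in vector cultures with Bic/4AP and 6.74 in untreated vector cultures, lower with the hairpin in both states. Fos, Npas4, Arc and Bdnf, genes that firing induces, were all 2-fold higher with Bic/4AP in both kinds of culture, Fos at 765 against 15.3 FPKM in shRNA cultures and 771 against 12.5 FPKM in vector cultures. Relative depth, estimated from the bounds, lay between 0.932 and 1.04 of that of the untreated vector library, and 12976 to 13141 genes reached an FPKM of 1. The cultures are labelled as neurons and held neuronal markers, with Rbfox3 at 28.1 to 42.8 FPKM. They also held glial markers, with the astrocyte genes Gfap at 1514 to 1767 FPKM and Aqp4 at 172 to 205 FPKM. No member of the lists of astrocyte, progenitor, oligodendrocyte, neuron or microglia markers was at 0 in any library. Some progenitor, oligodendrocyte and microglia markers stayed below an FPKM of 1 in every library, so a value above 0 does not show that such cells were present. In bulk samples such as these, fewer cells of a type and less RNA per cell cannot be told apart.

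Levels of the 8 genes spanned from 0.802 FPKM for Sox8 in shRNA cultures with Bic/4AP to 103 FPKM for Sox2 in untreated shRNA cultures, with a SoxB1 and a SoxE gene of glia and progenitors at the top. In the libraries with Bic/4AP the order from high to low was Sox2, Sox9, Sox4, Sox11, Sox6, Sox12, Sox5 and Sox8. In the untreated libraries Sox6 and Sox12 stood above Sox11, so that Sox11 took place 4 with Bic/4AP, against place 6 untreated. No neighbours in these orders had overlapping bounds in any library. Summed over the 8, the level was 268.5 FPKM in shRNA cultures with Bic/4AP, 202.0 in untreated shRNA cultures, 226.9 in vector cultures with Bic/4AP and 177.1 in untreated vector cultures. Sox2 alone held 35.9% of that sum with Bic/4AP against 51.1% untreated in shRNA cultures, and 35.9% with Bic/4AP against 50.8% untreated in vector cultures. Its own FPKM was only slightly lower with Bic/4AP.

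**Figure D1:**
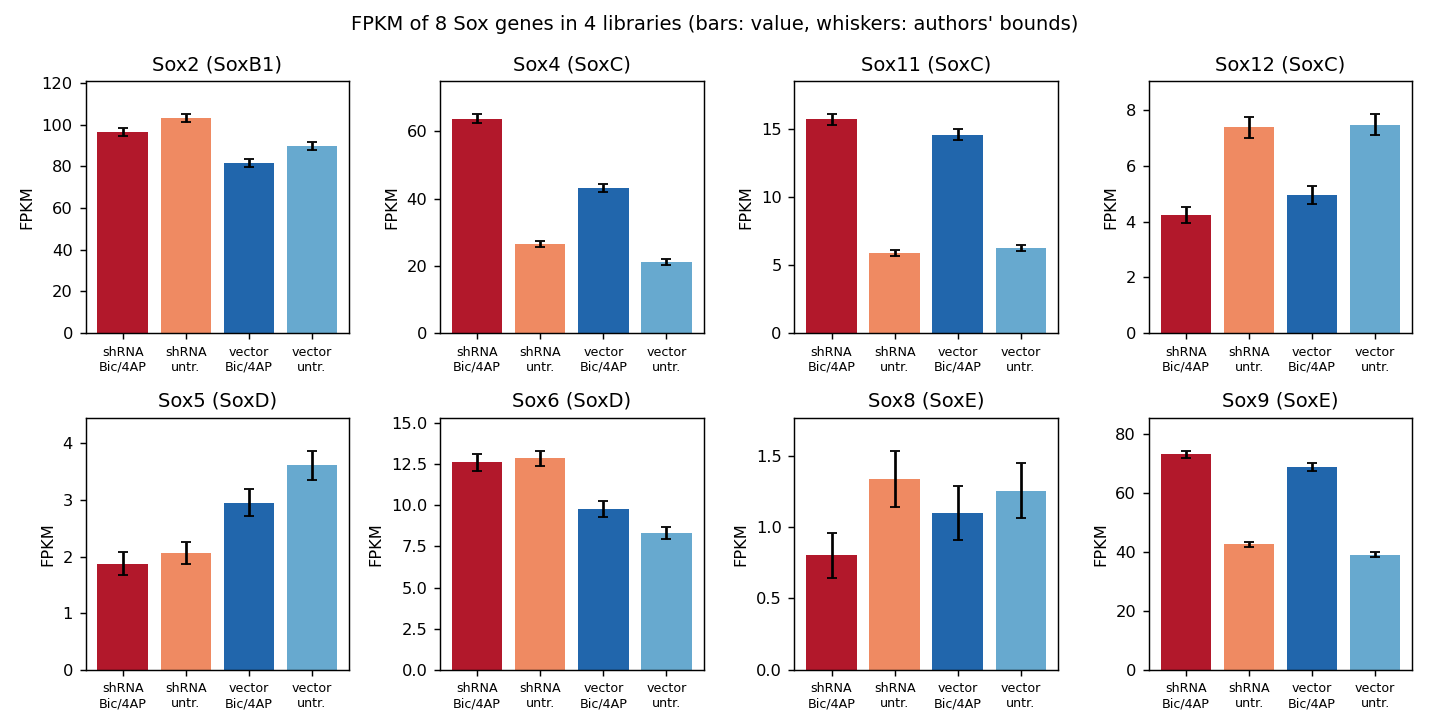
FPKM of the 8 Sox genes (vertical axes, each from 0) in the 4 libraries, shRNA with Bic/4AP, shRNA untreated, vector with Bic/4AP and vector untreated from left to right; bars are the values of 1 library each and whiskers the authors' bounds. Sox4, Sox11 and Sox9 were higher in both Bic/4AP libraries than in both untreated ones, Sox12 was lower in both, and Sox5 and Sox6 differed between shRNA and vector cultures.

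The first comparison asked which Sox genes differed after 3 h of Bic/4AP. Sox4 and Sox11 were 2-fold higher in shRNA cultures, and Sox11 was 2-fold higher in vector cultures, where Sox4 lay just under that limit. The glial factor gene Sox9 was higher by about 1.7 times in both kinds of culture, and Sox12 was lower in both. Sox2, Sox5, Sox6 and Sox8 lay closer to 0. In shRNA cultures 2 of 8 genes were 2-fold higher and 0 were 2-fold lower, where 2.08% of the 13320 genes compared were 2-fold higher and 0.158% were 2-fold lower. In vector cultures 1 of 8 was 2-fold higher and 0 were 2-fold lower, against 2.22% and 0.272% of 13217 genes. The median of the 8 differences was -0.06 in shRNA cultures, with 3 above and 5 below 0, beside a median of -0.08 over all genes compared. In vector cultures it was 0.05, with 4 above and 4 below 0, beside -0.07 over all genes. Bounds did not overlap for 6 of 8 genes in shRNA cultures and for 7 of 8 in vector cultures. Over all genes compared, bounds did not overlap for 54.6% in shRNA cultures and 58.7% in vector cultures, so such a gap is common within a pair of these libraries.

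**Figure D2:**
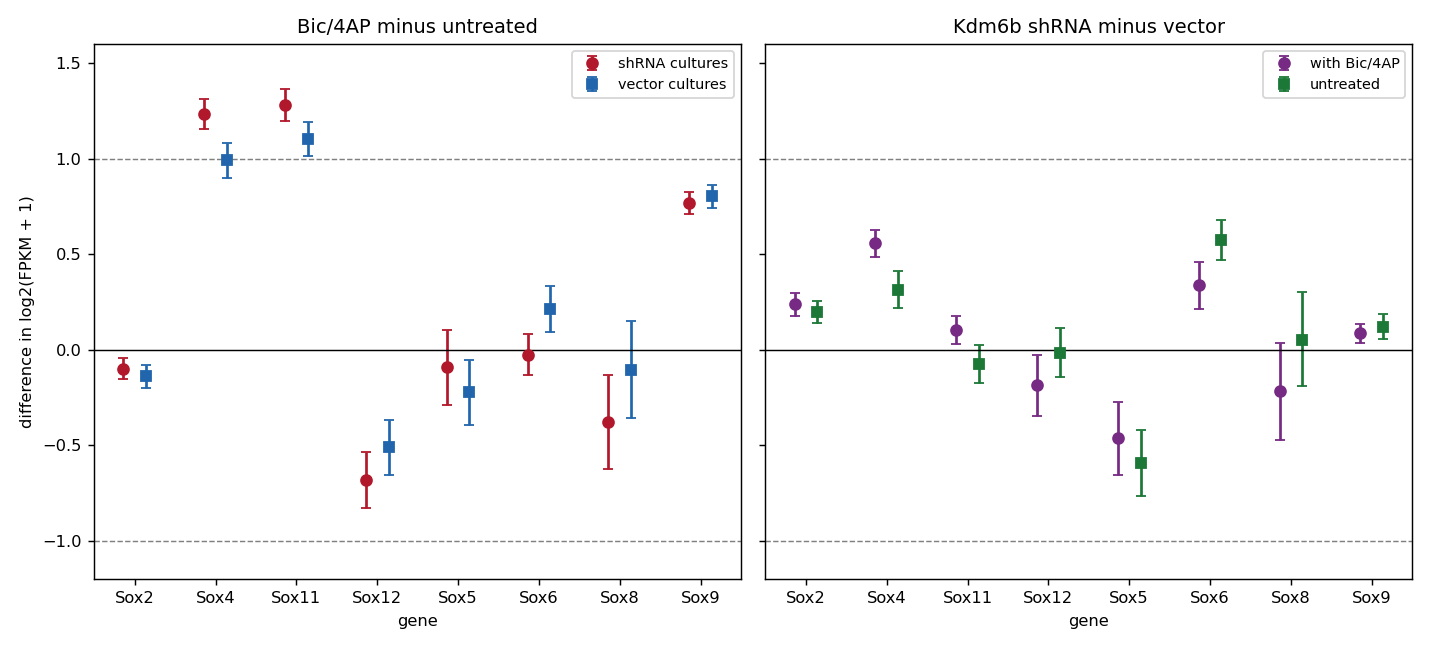
Differences in log2(FPKM + 1) for each Sox gene, Bic/4AP minus untreated at left (circles, shRNA cultures; squares, vector cultures) and Kdm6b shRNA minus vector at right (circles, with Bic/4AP; squares, untreated). Whiskers run between the extremes that the authors' bounds allow and dashed lines mark a 2-fold difference; Sox4 (1.23 and 0.99) and Sox11 (1.28 and 1.10) lie highest at left, and Sox5 (-0.46 and -0.59) lies lowest at right.

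Sox4, a SoxC activator of neuronal genes that also supports the survival of young neurons, is a gene of 1 exon on the minus strand of chromosome 13, from 29042599 to 29045551 in build mm9. Its FPKM was 63.8 [62.4 to 65.2] in shRNA cultures with Bic/4AP, 26.5 [25.6 to 27.4] in untreated shRNA cultures, 43.0 [41.8 to 44.2] in vector cultures with Bic/4AP and 21.2 [20.3 to 22.0] in untreated vector cultures. Both Bic/4AP libraries were above both untreated ones, and the shRNA library was the higher of each pair. The difference with Bic/4AP was 1.23 (between 1.16 and 1.31 by the bounds) in shRNA cultures, a ratio of 2.40. In vector cultures it was 0.99 (0.90 to 1.08), a ratio of 2.03. Of all genes compared, 1.49% in shRNA cultures and 2.29% in vector cultures lay at least as far up. The locus spans 2953 bp in the mm9 tables, whereas the longest Sox4 transcript in GENCODE mouse release 21 has 4795 nt, so the level per length depends on the annotation used, which is the same for all 4 libraries.

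Sox11, which acts beside Sox4 in newborn neurons and in axon growth, is likewise a gene of 1 exon, on the minus strand of chromosome 12 from 28019133 to 28027583. Its FPKM was 15.7 [15.3 to 16.1] in shRNA cultures with Bic/4AP, 5.86 [5.62 to 6.10] in untreated shRNA cultures, 14.5 [14.1 to 14.9] in vector cultures with Bic/4AP and 6.23 [5.98 to 6.49] in untreated vector cultures. The libraries thus fell into a high pair with Bic/4AP and a low pair without, whichever virus they carried. The difference with Bic/4AP was 1.28 (1.20 to 1.37) in shRNA cultures, a ratio of 2.67, and 1.10 (1.02 to 1.19) in vector cultures, a ratio of 2.33. At least as far up lay 1.40% of genes compared in shRNA cultures and 1.80% in vector cultures.

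Sox12, the SoxC gene with the weakest known effect of its own in mice, lies on the minus strand of chromosome 2 from 152219348 to 152223782, in 1 exon. Its FPKM was 4.23 [3.94 to 4.52] in shRNA cultures with Bic/4AP, 7.39 [7.02 to 7.77] in untreated shRNA cultures, 4.95 [4.62 to 5.27] in vector cultures with Bic/4AP and 7.49 [7.10 to 7.87] in untreated vector cultures. Here the high pair was the untreated one. The difference with Bic/4AP was -0.68 (-0.83 to -0.54) in shRNA cultures and -0.51 (-0.66 to -0.37) in vector cultures, opposite in sign to Sox4 and Sox11 in both. At least as far down lay 1.31% of genes compared in shRNA cultures and 5.65% in vector cultures.

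With Sox4 and Sox11 higher and Sox12 lower, the make-up of SoxC transcripts differed between states. The 3 genes summed to 83.7 FPKM in shRNA cultures with Bic/4AP, 39.8 in untreated shRNA cultures, 62.5 in vector cultures with Bic/4AP and 34.9 in untreated vector cultures. Sox12 made up 5.06% of that sum with Bic/4AP against 18.6% untreated in shRNA cultures, and 7.92% with Bic/4AP against 21.5% untreated in vector cultures. Sox4 held the largest share in all 4 libraries, 76.2% with Bic/4AP against 66.7% untreated in shRNA cultures, and 68.8% with Bic/4AP against 60.7% untreated in vector cultures. Sox11 stood above Sox12 with Bic/4AP and below it without: the ratio of Sox11 to Sox12 was 3.71 with Bic/4AP against 0.793 untreated in shRNA cultures, and 2.94 with Bic/4AP against 0.833 untreated in vector cultures. The ratio of Sox4 to Sox11 varied less, at 4.07 with Bic/4AP against 4.53 untreated in shRNA cultures, and 2.96 with Bic/4AP against 3.39 untreated in vector cultures.

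**Figure D3:**
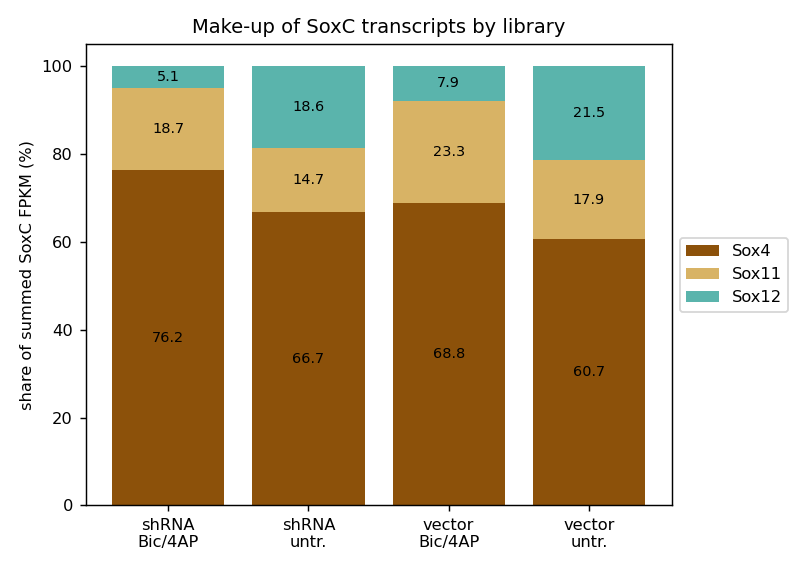
Share of summed SoxC FPKM (vertical axis, percent) held by Sox4, Sox11 and Sox12 in each of the 4 libraries. The Sox12 segment is 5.06% and 7.92% in the libraries with Bic/4AP and 18.6% and 21.5% in the untreated ones.

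SoxC factors are known to act in immature neurons, and 12 genes of such neurons were listed. Of 10 members compared in shRNA cultures 3 lay above and 7 below 0 with Bic/4AP, and of 11 in vector cultures 3 lay above and 8 below. None was 2-fold higher or lower, where 2.08% of all genes were 2-fold higher in shRNA cultures and 2.22% in vector cultures. The list medians were -0.06 in shRNA cultures and -0.18 in vector cultures, beside -0.08 and -0.07 over all genes. Tubb3, a neuronal tubulin gene and known SoxC target, was the lowest, at 225 against 355 FPKM in shRNA cultures and 294 against 389 FPKM in vector cultures. Igfbpl1 was the highest in shRNA cultures (0.28, and 0.04 in vector cultures) and Cd24a in vector cultures (0.54, and 0.27 in shRNA cultures). Dcx, another known SoxC target, was left out because its estimate was marked as failed.

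The genes outside the family whose 3 differences (both Bic/4AP responses and the untreated shRNA effect) lay nearest to those of Sox4, among 12638 genes that reached an FPKM of 1 in each library, were Zswim6 (distance 0.19), Ptp4a1 (0.21) and Hist1h4m (0.23). Ptp4a1, which encodes a protein tyrosine phosphatase, was also close to Sox4 in level, at 61.3 FPKM in shRNA cultures with Bic/4AP, 24.2 in untreated shRNA cultures, 46.5 in vector cultures with Bic/4AP and 19.9 in untreated vector cultures. Nearest to Sox11 were A630072M18Rik (0.10), Zbtb11 (0.10) and Ccnl1 (0.11), the last a cyclin gene linked to RNA splicing. All 6 were 2-fold higher with Bic/4AP in both kinds of culture, the rule of likeness having used those differences.

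Sox9, the SoxE gene that starts gliogenesis and marks astrocyte nuclei in the adult brain, lies on the plus strand of chromosome 11 from 112643524 to 112649071 in 3 exons. Its FPKM was 73.3 [72.0 to 74.5] in shRNA cultures with Bic/4AP, 42.6 [41.7 to 43.6] in untreated shRNA cultures, 69.0 [67.7 to 70.3] in vector cultures with Bic/4AP and 39.1 [38.2 to 40.1] in untreated vector cultures. The Bic/4AP libraries were again the high pair, and the difference was nearly the same size in both kinds of culture. It was 0.77 (0.71 to 0.82) in shRNA cultures, a ratio of 1.72, and 0.80 (0.74 to 0.86) in vector cultures, a ratio of 1.76. At least as far up lay 3.06% of genes compared in shRNA cultures and 3.09% in vector cultures.

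Other astrocyte genes lay near 0 in the same comparison. The 10 astrocyte markers had a median of 0.05 in shRNA cultures and -0.02 in vector cultures. Of the 10, 0 were 2-fold apart in either. Over all genes, 2.08% were 2-fold higher and 0.158% lower in shRNA cultures, and 2.22% and 0.272% in vector cultures. All 10 lay below Sox9, as did most genes compared, only 3.06% and 3.09% lying at least as far up. The summed level of the 10 was 3354 FPKM with Bic/4AP against 3003 untreated in shRNA cultures. In vector cultures it was 3362 with Bic/4AP against 3170 untreated. S100b was the highest of them in shRNA cultures (0.25) and Slc1a3, a glutamate transporter gene, in vector cultures (0.20), while Fgfr3 was lowest in shRNA cultures (-0.20) and Slc1a2 in vector cultures (-0.27). Of 10 progenitor markers 8 were compared, with medians of 0.12 and 0.34 in shRNA and vector cultures and summed levels of 3217 against 2788 FPKM and 3283 against 2497 FPKM, Bic/4AP against untreated. Among them Vim, an intermediate filament gene of radial glia and reactive astrocytes, was highest in shRNA cultures at 0.28. Vim made up most of these sums and of their differences. Its level was 2087 against 1718 FPKM in shRNA cultures and 2267 against 1543 FPKM in vector cultures. Pax6, a progenitor transcription factor gene, was highest in vector cultures at 0.83, slightly above Sox9. Whether the progenitor markers had a part in the Sox9 difference was not tested.

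Sox8, the SoxE gene that works beside Sox10 in oligodendrocytes, was the lowest of the 8, on the minus strand of chromosome 17 from 25702838 to 25707631 in 3 exons. Its FPKM was 0.802 [0.646 to 0.958] in shRNA cultures with Bic/4AP, 1.34 [1.14 to 1.54] in untreated shRNA cultures, 1.10 [0.910 to 1.29] in vector cultures with Bic/4AP and 1.26 [1.06 to 1.45] in untreated vector cultures. The shRNA library with Bic/4AP stood lowest, its bounds overlapping those of the vector library with Bic/4AP only, and the bounds of the other 3 overlapped one another. The difference with Bic/4AP was -0.38 (-0.62 to -0.13) in shRNA cultures and -0.11 (-0.36 to 0.15) in vector cultures, with wide ranges at this low level. Oligodendrocyte markers had medians of -0.09 over 6 genes in shRNA cultures and -0.03 over 8 in vector cultures, with 0 called. Over all genes, 2.08% were 2-fold higher and 0.158% lower in shRNA cultures, and 2.22% and 0.272% in vector cultures. Sox10, the SoxE gene that defines the oligodendrocyte lineage, stayed below 1 FPKM in all 4 libraries, at 0.0562 to 0.168.

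Sox2, the SoxB1 gene that holds neural stem cells in an undifferentiated state, was the highest of the 8 in every library. It lies in 1 exon on the plus strand of chromosome 3 from 34548927 to 34551382, within the locus of the noncoding gene Sox2ot, so reads from the overlap may have been split between them. Its FPKM was 96.3 [94.4 to 98.2] in shRNA cultures with Bic/4AP, 103 [101 to 105] in untreated shRNA cultures, 81.5 [79.7 to 83.3] in vector cultures with Bic/4AP and 89.9 [88.1 to 91.8] in untreated vector cultures. Between 3.83% and 5.18% of all kept genes reached its level. The untreated library was the higher of each pair by a little, with a Bic/4AP difference of -0.10 in shRNA cultures and -0.14 in vector cultures, close to the median of all genes. As Sox9 was higher with Bic/4AP and Sox2 was not, the ratio of Sox2 to Sox9 was 1.31 with Bic/4AP against 2.42 untreated in shRNA cultures, and 1.18 with Bic/4AP against 2.30 untreated in vector cultures.

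**Figure D4:**
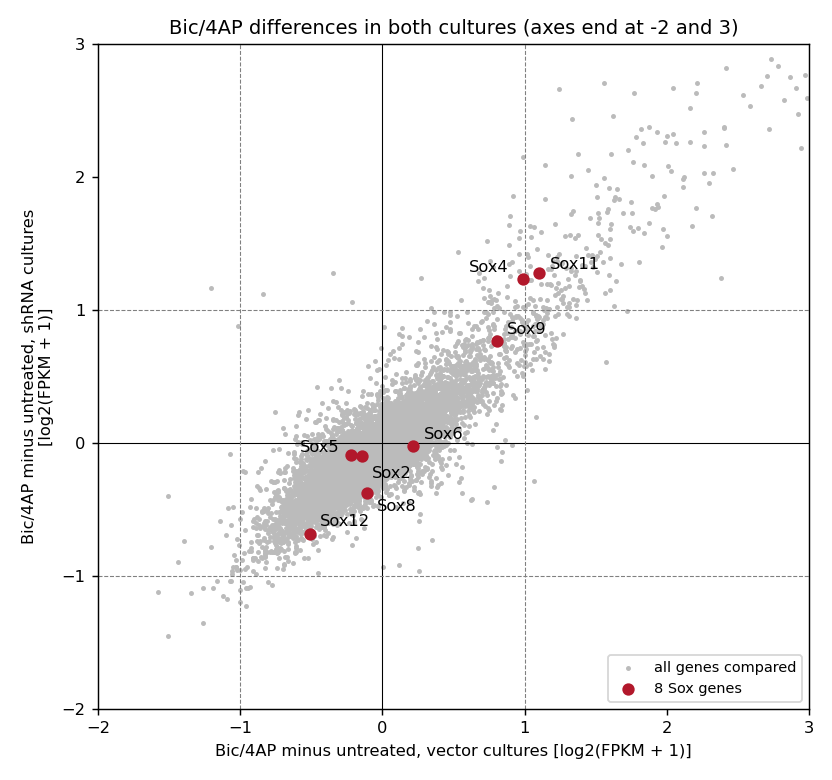
Bic/4AP minus untreated in log2(FPKM + 1) for all genes compared (grey) and the 8 Sox genes (red), with shRNA cultures on the vertical axis and vector cultures on the horizontal axis; dashed lines mark a 2-fold difference and genes beyond the axis ends are not drawn. Sox11, Sox4 and Sox9 lie toward the upper right, Sox12 toward the lower left, and the other 4 within the bulk of the genes.

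The second comparison asked how the Sox genes differed between Kdm6b shRNA and vector cultures. The SoxD genes among the 8 lay in opposite directions. Sox6 was higher and Sox5 lower with the hairpin, both with Bic/4AP and without, and untreated these were the largest differences of the 8. Sox4 was higher in both states and, with Bic/4AP, differed most of the 8. Sox2 was higher by less in both states, and Sox9 lay within 0.12 of 0. With Bic/4AP 0 of 8 genes were 2-fold higher and 0 were 2-fold lower, where 0.189% and 0.536% of 13240 genes were. Untreated, 0 of 8 were 2-fold higher and 0 were 2-fold lower, where 0.414% and 0.669% of 13295 genes were. The median of the 8 was 0.09 in each state, with 5 above and 3 below 0, beside all-gene medians of 0.03 with Bic/4AP and 0.05 untreated. Bounds did not overlap for 7 of 8 genes with Bic/4AP, where 49.7% of all genes had such a gap, and for 5 of 8 untreated, where 55.2% had one.

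Sox6, which in the forebrain sets the position and maturation of interneurons and holds back oligodendrocyte differentiation, spans 567401 bp on the minus strand of chromosome 7, from 122614858 to 123182258. Its FPKM was 12.6 [12.1 to 13.2] in shRNA cultures with Bic/4AP, 12.9 [12.4 to 13.3] in untreated shRNA cultures, 9.78 [9.29 to 10.3] in vector cultures with Bic/4AP and 8.30 [7.94 to 8.66] in untreated vector cultures. Both shRNA libraries were above both vector libraries. With the hairpin it was higher by 0.34 (0.21 to 0.46) with Bic/4AP and by 0.58 (0.47 to 0.68) untreated, a ratio of 1.29 with Bic/4AP and of 1.55 untreated. At least as far up lay 8.97% of genes compared with Bic/4AP and 2.95% untreated. Its Bic/4AP difference was -0.03 (-0.13 to 0.08) in shRNA cultures, a sign that turned under median-ratio and upper-quartile scaling, and 0.21 (0.09 to 0.33) in vector cultures.

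Sox5, a SoxD gene that controls the fate and migration of deep-layer cortical projection neurons, spans 381144 bp on the minus strand of chromosome 6, from 143776945 to 144158088. Its FPKM was 1.87 [1.67 to 2.07] in shRNA cultures with Bic/4AP, 2.06 [1.87 to 2.26] in untreated shRNA cultures, 2.95 [2.71 to 3.20] in vector cultures with Bic/4AP and 3.62 [3.36 to 3.87] in untreated vector cultures. Both shRNA libraries were below both vector libraries, the mirror image of Sox6. The difference was -0.46 (-0.65 to -0.27) with Bic/4AP, a ratio of 0.633, and -0.59 (-0.77 to -0.42) untreated, a ratio of 0.570. At least as far down lay 3.69% of genes compared with Bic/4AP and 2.86% untreated. With Bic/4AP it was lower by little, at -0.09 (-0.29 to 0.10) in shRNA cultures and -0.22 (-0.39 to -0.05) in vector cultures.

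The ratio of Sox6 to Sox5 was therefore higher with the hairpin in both states. It was 6.74 [5.82 to 7.89] in shRNA against 3.31 [2.91 to 3.78] in vector cultures with Bic/4AP, and 6.24 [5.49 to 7.15] in shRNA against 2.30 [2.05 to 2.58] in vector cultures untreated. Sox5 and Sox6 have 15 and 16 exons in their longest GENCODE transcripts, and values per transcript were not used here.

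SoxD genes are known to act in interneurons, oligodendrocytes and projection neurons, and markers of these cells were set beside them. Of 11 interneuron markers 10 were compared, with a median of -0.33 with Bic/4AP and -0.51 untreated, and summed levels of 761 FPKM in shRNA against 1047 FPKM in vector cultures with Bic/4AP and 494 FPKM against 1034 FPKM untreated. All 10 lay below 0 untreated, while with Bic/4AP 2 lay above and 8 below. Pvalb was highest with Bic/4AP (0.25) and Satb1 untreated (-0.03). Untreated, 3 of the 10 were 2-fold lower, where 0.669% of all genes were. These were the neuropeptide genes Npy (-1.46) and Sst (-1.25) and the GABA synthesis gene Gad1 (-1.10), in the direction opposite to Sox6. With Bic/4AP 0 of 10 were 2-fold apart. Beside this and the counts that follow, 0.189% of all genes were 2-fold higher and 0.536% lower with Bic/4AP. Untreated, the shares were 0.414% and 0.669%. The 8 oligodendrocyte markers compared, 0 of them 2-fold apart in either state, had medians of -0.39 with Bic/4AP and -0.34 untreated, with summed levels of 121 FPKM in shRNA against 144 FPKM in vector cultures with Bic/4AP and 127 FPKM against 141 FPKM untreated. The 9 excitatory neuron markers, also with 0 called, had medians of 0.06 with Bic/4AP (5 above and 4 below 0) and -0.20 untreated (0 above and 9 below), with summed levels of 427 FPKM in shRNA against 488 FPKM in vector cultures with Bic/4AP and 491 FPKM against 676 FPKM untreated. Of 8 microglia markers 6 were compared, with medians of -0.82 with Bic/4AP and -0.71 untreated. Of these, 2 were 2-fold lower with Bic/4AP and 3 untreated, where 0.536% and 0.669% of all genes were. Tyrobp was lowest (-1.41 and -1.46), while P2ry12 was at 0.10 and 0.24. Of 7 fibroblast and mural markers compared 0 were 2-fold apart, with medians of -0.24 with Bic/4AP (2 above and 5 below 0) and -0.35 untreated (1 above and 6 below). The part of these markers in the Sox5 and Sox6 differences was not tested.

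**Figure D5:**
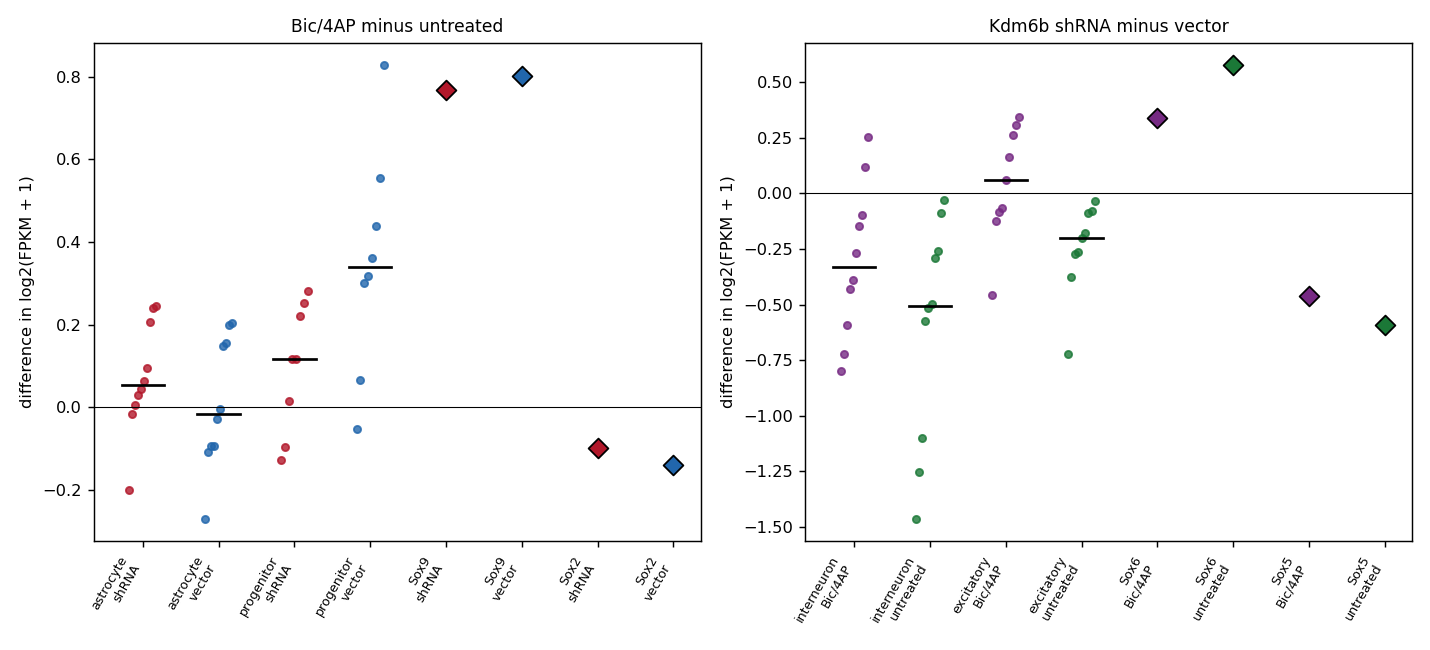
Differences in log2(FPKM + 1) of single marker genes (dots, with the list median as a bar) beside those of Sox genes (diamonds): at left Bic/4AP minus untreated for astrocyte and progenitor markers, Sox9 and Sox2, and at right Kdm6b shRNA minus vector for interneuron and excitatory neuron markers, Sox6 and Sox5. Sox9 lies above all astrocyte markers in both kinds of culture, and Sox6 lies above all interneuron and excitatory markers untreated.

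Of the 5 genes compared from a list of deep-layer projection neuron genes, in whose specification Sox5 is known to act, 0 were 2-fold apart between shRNA and vector cultures. Over all genes, 0.189% were 2-fold higher and 0.536% lower with Bic/4AP, and 0.414% and 0.669% untreated. The medians of the 5 were 0.26 with Bic/4AP and 0.07 untreated. Nfib, a nuclear factor I gene, was the highest at 0.61 with Bic/4AP and 0.66 untreated. The cartilage matrix genes that Sox5, Sox6 and Sox9 activate together in chondrocytes were mostly near the floor, with 3 of 9 reaching 1 FPKM and Col2a1 at 0.125 to 0.239 FPKM. Of the 3 compared, 1 was 2-fold lower with the hairpin in each state. Over all genes, 0.536% were with Bic/4AP and 0.669% untreated. It was Hapln1, which encodes a link protein that is also part of the nets around neurons. Its level was 14.8 in shRNA against 34.8 FPKM in vector cultures with Bic/4AP and 13.8 against 36.2 FPKM untreated. Acan, the aggrecan gene of cartilage and of the same nets, was 2-fold higher with Bic/4AP in shRNA cultures (1.25), where 2.08% of all genes were. In vector cultures its difference was 0.89, below that limit. Its level was 4.65 against 1.37 FPKM in shRNA cultures and 5.12 against 2.29 FPKM in vector cultures.

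Sox4 was higher with the hairpin by 0.56 (0.49 to 0.63) with Bic/4AP, the largest difference of the 8 in that state, and by 0.31 (0.22 to 0.41) untreated, with 2.11% and 13.9% of genes at least as far up. Sox2 was higher by 0.24 (0.18 to 0.30) with Bic/4AP and by 0.20 (0.14 to 0.25) untreated, and Sox2ot, whose locus contains it, by 0.25 and 0.44. Sox9 differed by 0.09 with Bic/4AP and 0.12 untreated. Sox11 differed by 0.10 (0.03 to 0.17) with Bic/4AP and -0.08 (-0.18 to 0.02) untreated. Sox12 differed by -0.19 (-0.35 to -0.03) with Bic/4AP and -0.02 (-0.15 to 0.11) untreated. Sox8 differed by -0.22 (-0.47 to 0.04) with Bic/4AP and 0.05 (-0.19 to 0.30) untreated, its bounds overlapping in both.

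The third comparison asked whether the Bic/4AP response itself differed between shRNA and vector cultures, as the shRNA response minus the vector response. None of the 8 was 2-fold apart in either direction, where 0.111% of 13458 genes were higher and 0.126% lower by that much. The median of the 8 was 0.0029, with 4 above and 4 below 0, beside -0.02 over all genes. Sox4 (0.24, between 0.07 and 0.41 by the bounds) and Sox11 (0.18, between 0.01 and 0.35) lay above 0, with the larger response in shRNA cultures. Sox6 (-0.24, between -0.47 and -0.01) lay below 0. For Sox2 (0.04), Sox5 (0.13), Sox8 (-0.27), Sox9 (-0.03) and Sox12 (-0.17) the range that the bounds allow included 0. The near ends of the Sox11 range (0.0055) and of the Sox6 range (-0.011) lay close to 0. The share of all genes whose range leaves out 0 was not counted.

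Of 12 other Sox genes and Sox2ot in the tables, 5 reached an FPKM of 1, and 0 of these 5 were 2-fold apart in any comparison. Over all genes, only 0.111% to 2.22% were, depending on comparison and direction. Sox21, a SoxB2 repressor that counters SoxB1 factors, had the direction of Sox12, with differences of -0.50 in shRNA cultures and -0.52 in vector cultures, at 9.97 against 14.5 FPKM in shRNA cultures and 10.3 against 15.2 FPKM in vector cultures, Bic/4AP against untreated. Sox1 and Sox3, the SoxB1 relatives of Sox2, stood at 8.87 to 10.5 FPKM and 1.73 to 2.45 FPKM, so that Sox2 made up 86.9% to 90.1% of SoxB1 FPKM. Sox13, the SoxD relative of Sox5 and Sox6, stood at 2.36 to 3.26 FPKM. Its difference between shRNA and vector cultures was -0.03 with Bic/4AP and 0.31 untreated. Sox9 made up 96.5% to 98.8% of SoxE FPKM. Among 10 genes of known Sox partner factors 0 were 2-fold apart in the Bic/4AP comparisons or between shRNA and vector cultures. In these comparisons 0.158% to 2.22% of all genes were, depending on direction. With Bic/4AP the POU factor gene Pou3f1 was the highest in shRNA cultures (0.45, and -0.05 in vector cultures) and Pax6 in vector cultures (0.83, and 0.25 in shRNA cultures). With the hairpin Pou3f1 was the lowest untreated (-0.88, and -0.39 with Bic/4AP).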

How the data were processed

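The deposited tables hold FPKM with a lower and an upper bound for each of 22878 rows per library. Per the submitters' processing notes, Cufflinks 2.0.2, TopHat2 2.0.8b, CASAVA and build mm9 were used by the authors; the role of each and the gene annotation are not given in the sources used here. The tables hold no read counts, so depth was estimated only relatively, from the width of the bounds. Rows were summed per symbol, 42 symbols with an estimate marked as failed in any library and small RNA genes recognised by symbol were left out, and FPKM were not rescaled. Genes entered a comparison if either library reached an FPKM of 1, and a pseudocount of 1 was added. Table starts were converted to count from 1, as 95.1% of microRNA genes had a length equal to end minus start. Distance between patterns is Euclidean over 3 differences.

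The 8 genes, the lists and the rules were chosen with earlier results of these data known. Named by rule were the 8, Kdm6b, the 4 firing genes and other Sox genes of at least 1 FPKM. So were the 3 nearest genes of each 2-fold member. The rule also covered the highest and lowest members of each list described, but only some of these were named. Vim, Pax6, Acan and Hapln1 were such highest or lowest members. Rbfox3, Gfap, Aqp4, Gad1, Sst, Col2a1, Dcx and Sox10 were named for their role or after their values were seen. The code (Python 3.11.15, pandas 2.3.3, numpy 2.4.6, matplotlib 3.10.9) was checked on simulated data. Alternatives were other pseudocounts, filters and scalings, the highest row per symbol, and non-overlapping bounds as a further condition. A planned comparison of HMG boxes was not made. Exon numbers and transcript lengths are from GENCODE mouse release 21.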

Additional observations from a re-analysis of the deposited data

Results flagged for a closer look

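For 3 of the 8 genes an effect had opposite signs in the 2 states or kinds of culture compared, with 1 library in each, so that the difference was not tested. The share of all genes with such opposite signs was not counted, so 3 of 8 may be ordinary. Sox6 with Bic/4AP lay at -0.03 in shRNA cultures and 0.21 in vector cultures, a difference of -0.24. The Sox11 difference between shRNA and vector cultures was 0.10 with Bic/4AP and -0.08 untreated, a difference of 0.18. The Sox8 difference between shRNA and vector cultures was -0.22 with Bic/4AP and 0.05 untreated, a difference of -0.27. For Sox6 and Sox11 the smaller of the effects, and for Sox8 both, have bounds that overlap.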

How the results depend on the processing

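Sox4 in vector cultures lies at the 2-fold limit, so the number of Sox genes called there depended on the scale. Without the change it was 1 (Sox11). It was 2 (Sox4 and Sox11) at a pseudocount of 0.1, with median-ratio scaling and with upper-quartile scaling, and 0 at a pseudocount of 5, which also left 1 (Sox4) of the 2 called in shRNA cultures. A pseudocount shrinks differences of low levels by construction. The counts of 0 in the other 3 comparisons were 0 under all alternatives run. Of the 40 differences of the 8 genes, 4 moved beyond the range of their bounds at a pseudocount of 0.1, 10 at 5 and 8 with median-ratio scaling, and 0 with upper-quartile scaling, common-sum scaling or the highest row; no called difference turned its sign. The uncalled Sox6 difference with Bic/4AP in shRNA cultures turned its sign under median-ratio and upper-quartile scaling. No paired analysis was possible because each condition has 1 library. The bounds, wider at low levels, limit Sox8 and Sox5 most: the median distance to the upper bound was at least 11.3% of the value at FPKM 1 to 5 and at most 4.44% above.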

Other observations

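Of 5 deep-layer projection neuron genes compared, 1 was 2-fold higher with Bic/4AP. Over all genes, 2.08% were 2-fold higher in shRNA cultures and 2.22% in vector cultures. The gene was Fezf2, a zinc finger factor of subcortical projection neurons. Its level was 42.3 against 15.2 FPKM in shRNA cultures and 28.4 against 13.6 FPKM in vector cultures. Bcl11b, which acts downstream of Fezf2 in the cortex, was lower, at 3.88 against 6.52 FPKM in shRNA cultures and 4.01 against 7.33 FPKM in vector cultures. Of 8 neuron markers 1 was 2-fold higher with Bic/4AP, against the same shares of all genes. It was Nefl, a neurofilament gene, with differences of 1.33 in shRNA cultures and 1.04 in vector cultures. Of the 8, 3 lay above and 5 below 0 in shRNA cultures, and 2 above and 6 below in vector cultures. Of the immature neuron genes, 1 was 2-fold lower with the hairpin in each state, of 10 compared with Bic/4AP and 11 untreated. Over all genes, 0.536% and 0.669% were 2-fold lower. It was the growth-associated gene Stmn2, with differences of -1.21 with Bic/4AP and -1.34 untreated. Of the list, 4 lay above and 6 below 0 with Bic/4AP, and 5 above and 6 below untreated.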
